A study of Homo sapiens with 4 samples.

Results

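The insulin-like growth factor (IGF) system was followed in RD and JR1 cells by its ligands IGF1 and IGF2, its receptors IGF1R and IGF2R, the binding proteins IGFBP2 to IGFBP6 and the receptor substrate IRS1. These 10 genes are 10 of the 39323 genes with a value in each library. They were selected on their place in the IGF system and on earlier results of these libraries, in which IGFBP6 stood among the largest falls after SKP2 depletion. Their differences with shSKP2 are therefore described and not tested. RD and JR1 are established lines of fusion-negative rhabdomyosarcoma, a childhood tumor of cells that have entered the muscle lineage but do not complete differentiation. Each line was infected with a lentivirus that expressed 1 hairpin against SKP2 (shSKP2) or a scrambled hairpin (shSCR), and both lines grew in the same serum-containing medium. SKP2 is the substrate-recognition subunit of an SCF ubiquitin ligase. All 4 libraries, controls included, came from infected cells, and each came from 1 line with 1 hairpin, with 1 library per line and condition and no replicate. No difference below has a replicate check or a p-value.

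IGF1 and IGF2 are secreted ligands of the tyrosine kinase receptor IGF1R, which signals through IRS1 to PI3K and AKT. IGF2R lacks a kinase and carries IGF2 to lysosomes. The binding proteins hold the ligands outside the cell, where they can block or prolong their action, and proteases such as PAPPA release the ligand. IGF2 is an imprinted growth factor of fetal muscle that is highly expressed in rhabdomyosarcoma.

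Levels are in TPM, the abundance of a transcript scaled by its length and by the total of its library, which may be compared between genes. A change is log2 of TPM + 1 with shSKP2 over TPM + 1 with shSCR in the same line, so that changes of scarce transcripts come out too small. A gene was tested if its mean over the 4 libraries was at least 1 TPM, which held for 12985 genes and for 9 of the 10 IGF system genes. IGF1 was the exception. A gene was called when 2 libraries differed by at least 1 on this log2 scale, a 2-fold ratio of TPM + 1, which is a limit of size and not a test. Depth is unknown, because TPM keep no read counts. Short structural RNAs took 50.1% to 62.3% of the TPM in RD and 57.1% to 64.9% in JR1, the larger share being that with shSKP2. Over tested genes the change had a median of -0.27 (RD) and -0.21 (JR1), so values relative to these medians are also given. The targeted transcript SKP2 was at 92.8 and 7.40 TPM in RD and at 46.5 and 2.72 TPM in JR1, without and with shSKP2. MYOD1, MYOG and CHRNA1 marked both lines as myogenic, at 31.6 TPM or more in every library, while the myogenic factor MYF5 was listed at 0 in all 4. With MYF6 and DES these muscle markers summed to 354 and 510 TPM in RD, without and with shSKP2. In JR1 they summed to 490 and 700 TPM. CHRNA1 alone gave 313.84 TPM of the sum in RD shSKP2 and 424.83 TPM in JR1 shSKP2. Of the 6 markers 5 were higher and 0 lower with shSKP2 in RD, and 4 higher and 1 lower in JR1. Of the 12985 tested genes 3200 were higher and 9738 lower in RD, and 4011 and 8943 in JR1. MYF5 and MYF6 did not reach the minimum mean. The marker that was lower in JR1 was DES, with a change of -0.50, against 0.14 in RD. The part of these markers in the results was not tested. The 5 epithelial markers summed to at most 0.19 TPM in any library and the 5 leukocyte markers to at most 0.86. Of 5 endothelial markers TEK alone exceeded 1 TPM.

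IGF2 was by far the most abundant gene of the system, and its level was nearly the same in the 4 libraries. It stood at 1294 TPM in RD shSCR, 1473 TPM in RD shSKP2, 1401 TPM in JR1 shSCR and 1196 TPM in JR1 shSKP2. Short structural RNA genes apart, it was the 20th, 12th, 13th and 15th most abundant transcript in these libraries. The change with shSKP2 was 0.19 in RD and -0.23 in JR1. The sign in JR1 depended on the scaling, since it was -0.01 relative to the median of tested genes and 0.06 with short structural RNA genes left out. In RD those values were 0.46 and 0.59. IGF1, the ligand that growth hormone induces in liver, had at most 0.40 TPM, in RD shSKP2, and 0.12 TPM in RD shSCR. In JR1 it had 0.06 TPM with shSCR and 0.09 TPM with shSKP2. IGF2 was thus the only one of the 2 ligands above 1 TPM in any library.

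IGF2 lies on chromosome 11 from base 2129117 to base 2149566 (GRCh38), inside an imprinted domain. The antisense transcript IGF2-AS overlaps it from base 2140512 to base 2148666. Unlike IGF2 it was lower with shSKP2 in both lines, at 16.8 and 4.69 TPM in RD and at 7.72 and 2.49 TPM in JR1. The ratio of IGF2 to IGF2-AS within a library, which no scaling of TPM can move, went from 76.9 to 314 in RD and from 181 to 480 in JR1. The library kit keeps the strand, but whether reads were assigned by strand is not given in the sources used here, so reads of the overlapping stretch may be divided between these genes. The read-through gene INS-IGF2, which shares exons with IGF2, and the neighbouring imprinted RNA H19 were listed at 0 in all 4 libraries, as was INS. Listing at 0 can come from how reads were divided, and does not show that a gene was silent.

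With the TPM as deposited, the receptors differed little between the lines and between the hairpins. IGF1R (chromosome 15, bases 98648539 to 98964530) was at 17.8 and 18.9 TPM in RD and at 15.0 and 19.5 TPM in JR1, without and with shSKP2. This is a change of 0.08 for RD and 0.35 for JR1, and of 0.35 and 0.57 after subtraction of the median over tested genes. With short structural RNA genes left out the change of IGF1R was 0.48 in RD and 0.65 in JR1. IGF2R (chromosome 6, bases 159969082 to 160111504) was at 41.9 and 45.1 TPM in RD and at 47.8 and 51.8 TPM in JR1. Its change was 0.11 in each line, and it was higher with shSKP2 under every scaling, by 0.51 (RD) and 0.40 (JR1) without short structural RNA genes. Transcripts that overlap these genes were scarce, with IRAIN at 0.53 to 1.73 TPM over IGF1R, and AIRN at 0.21 to 0.37 and CHP1P2 at 1.61 to 2.42 TPM over IGF2R. The scavenger receptor thus stood above the signalling receptor in every library, 2.35-fold and 2.38-fold in RD and 3.18-fold and 2.66-fold in JR1. The insulin receptor INSR, which can pair with IGF1R, was at 3.84 and 4.2 TPM in RD and at 1.59 and 2.65 TPM in JR1. IGF1R exceeded INSR 4.64-fold and 4.50-fold in RD, and 9.45-fold and 7.34-fold in JR1. For each IGF1R transcript there were 72.7 and 77.8 IGF2 transcripts in RD and 93.3 and 61.5 in JR1, on the TPM scale.

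IRS1, the docking protein that links IGF1R to PI3K (chromosome 2, bases 226731312 to 226799820), was at 42.2 and 35.7 TPM in RD and at 29.0 and 28.8 TPM in JR1. As deposited, the TPM gave changes of -0.23 (RD) and -0.01 (JR1), which turned positive relative to the median of tested genes (0.04 and 0.21) and with short structural RNA genes left out (0.16 and 0.28). Neither IGF2, the receptors nor IRS1 was called in any comparison with the TPM as deposited. IGF1 was too scarce to be tested. With 0.1 TPM added in place of 1, its change in RD was 1.18. Its difference between RD and JR1 with shSKP2 was then 1.40, at levels of at most 0.40 TPM. The plot of levels by library shows IGF2, the receptors and IRS1 as a flat group beside the binding proteins.

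**Figure D1:**
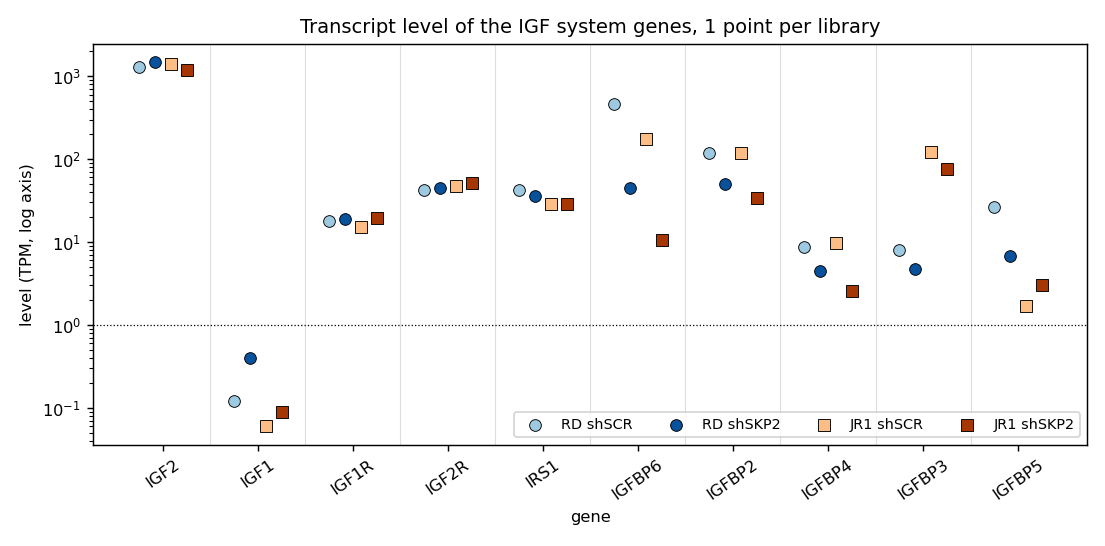
Level of the 10 IGF system genes in TPM on a log axis, with 1 point per library (circles RD, squares JR1, light shSCR, dark shSKP2) and no replicates. The dotted line marks 1 TPM. IGF2 lies between 1196 and 1473 TPM in all 4 libraries, IGF1 stays at or below 0.40 TPM, and IGFBP6 spans 10.5 to 463 TPM.

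Among the 9 tested IGF system genes, every call between the hairpins fell on a binding protein. In RD 3 were called lower and 0 higher, where 7.37% of all tested genes were called lower and 1.08% higher. In JR1 3 were called lower and 0 higher, against 9.05% and 1.78% of all tested genes.  The split of all tested genes depended on the scaling. After subtraction of the median 3.53% were lower and 2.09% higher in RD, and 5.47% and 2.99% in JR1. With short structural RNA genes left out and TPM rescaled, 14732 genes reached the minimum mean. Of these 3.41% were lower and 3.75% higher in RD, and 6.73% and 4.71% in JR1. Among the genes tested before rescaling, 450 were then lower and 410 higher in RD, and 876 and 554 in JR1. Without such rescaling, IGFBP6 and IGFBP2 were called lower in both lines, as were 4.79% of all tested genes. IGFBP5 was called lower in RD alone and IGFBP4 in JR1 alone. These are the contrasts from which the genes were chosen, so nothing is read from the counts. The median change of the 9 genes was -0.63 in RD and -0.23 in JR1, beside -0.27 and -0.21 over all tested genes. As these are bulk samples, fewer cells that make a transcript and less of it per cell cannot be told apart.

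IGFBP6 binds IGF2 in preference to IGF1. It lies on chromosome 12 from base 53097667 to base 53102340. It was at 463 TPM in RD shSCR and 44.7 TPM in RD shSKP2, and at 175 TPM in JR1 shSCR and 10.5 TPM in JR1 shSKP2. Both shSCR libraries lay above both shSKP2 libraries, and RD lay above JR1 with either hairpin. In RD its level was 10.3-fold lower with shSKP2, a change of -3.34, and in JR1 it was 16.7-fold lower, a change of -3.94. Among the 12861 tested genes other than short structural RNA genes this was the 9th lowest change in RD and the 5th lowest in JR1. With short structural RNA genes left out the changes were -2.96 and -3.73. Among all genes of that kind IGFBP6 went from the 115th to the 1283rd most abundant in RD, and from the 244th to the 5146th in JR1.

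The 5 genes whose profile over the 4 libraries was nearest to that of IGFBP6 were named by Euclidean distance between centred log2(TPM + 1) values. The nearest was SKP2 itself, at a distance of 0.65. IFIT1, an interferon-stimulated gene, followed at 0.80 with 62.9 and 9.07 TPM in RD and 39.1 and 2.40 TPM in JR1. The replication-dependent histone genes H4C4, H4C14 and H3C10 came next, at distances of 1.3 to 1.41. IGFBP6 was chosen with its fall in these libraries known, so its nearest profiles were bound to include other genes that fell strongly. The place of SKP2 among them is no separate result. The likeness is over 4 libraries only. All 9 genes of an interferon-stimulated list (ISG15, IFIT1, IFIT2, IFIT3, OASL, OAS1, OAS2, MX1 and RSAD2) were lower with shSKP2 in both lines. Their sum was 1223 TPM without and 104 TPM with shSKP2 in RD, and 1115 and 112 TPM in JR1. None of them was at 0 in all 4 libraries, and their part in the difference of IGFBP6 was not tested.

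IGFBP2, which is common in fetal tissue and binds both ligands, was at 117 and 50.1 TPM in RD and at 119 and 33.9 TPM in JR1, without and with shSKP2. The 2 shSCR libraries differed by less than 2 TPM, and both shSKP2 libraries were below them. Its level was 2.34-fold lower in RD (-1.21) and 3.51-fold lower in JR1 (-1.78). In RD the call was lost relative to the median of tested genes (-0.94) and with short structural RNA genes left out (-0.82), whereas in JR1 the value stayed past the limit at -1.57 and -1.51. The 5 nearest profiles were those of TCIRG1, RHEBL1, DGKA, RPL34 and IKBIP, at distances of at most 0.11. RPL34, for example, was at 372 and 152 TPM in RD and at 347 and 108 TPM in JR1.

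IGFBP4, which mainly inhibits IGF action and is the best-known substrate of PAPPA (chromosome 17, bases 40443450 to 40457725), was at 8.83 and 4.47 TPM in RD and at 9.68 and 2.58 TPM in JR1. The shSCR libraries were again alike. Its level was 1.98-fold lower in RD (-0.85, short of the limit) and 3.75-fold lower in JR1 (-1.58). IGFBP3, the main carrier of IGF in blood (chromosome 7, bases 45912245 to 45921272), was at 7.91 and 4.76 TPM in RD and at 120 and 75.9 TPM in JR1. It was 1.66-fold and 1.58-fold lower with shSKP2, changes of -0.63 and -0.66 that were not called in either line.

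IGFBP5, a binding protein that myoblasts secrete as they differentiate, moved in opposite directions. It was at 26.1 and 6.76 TPM in RD, where its level was 3.86-fold lower with shSKP2 (-1.80), and at 1.70 and 3.03 TPM in JR1, where it was 1.78-fold higher (0.58, not called). The signs were opposite under every scaling, with -1.49 in RD and 0.96 in JR1 with short structural RNA genes left out. Of the 9 tested IGF system genes 2 had opposite signs in the lines with the TPM as deposited, IGFBP5 and IGF2, as did 21.3% of all tested genes. IGFBP5 and IGFBP2 are neighbours on chromosome 2, with 7668 bases between them (IGFBP2 from base 216632828 to base 216664436 and IGFBP5 from base 216672105 to base 216695549). In JR1 the neighbours differed in sign. The profiles nearest to IGFBP5 were those of BTBD11, ISL1, RDH10, THBD and VASH1, at distances of 0.51 to 0.70. All 5 were higher in RD shSCR than elsewhere, and none of them differed by more than 0.15 between the JR1 libraries. THBD was at 23.6 and 11.2 TPM in RD and at 2.40 and 2.76 TPM in JR1.

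**Figure D2:**
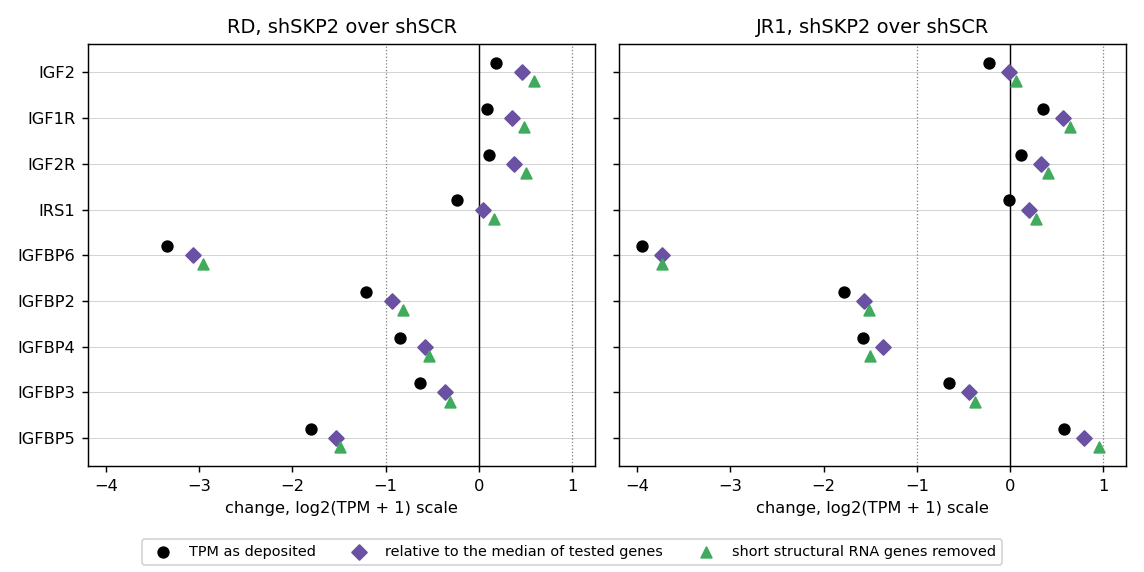
Change of the 9 tested IGF system genes with shSKP2 over shSCR in RD (left) and JR1 (right) on the log2(TPM + 1) scale, 1 value per line under each of 3 scalings (circles TPM as deposited, diamonds relative to the median of tested genes, triangles after removal of short structural RNA genes). Dotted lines mark -1 and 1. IGFBP6 lies at -3.34 and -3.94 as deposited, and IGFBP5 lies at -1.80 in RD and 0.58 in JR1.

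The 250 bases before the first listed start site are shown for the binding proteins that were called in at least 1 line. They were read from RefSeq promoters of build GRCh38.p14, which held 9 of the 10 genes. The first RefSeq start listed for each gene coincides with the start in the deposited tables. IGFBP2 has 3 starts listed, of which only the first is shown, and IGFBP6, IGFBP4 and IGFBP5 have 1 each. TPM per gene do not show which start the cells used. IGFBP6 is from chr12:53097417-53097666 (plus strand), IGFBP2 from chr2:216632578-216632827 (plus), IGFBP4 from chr17:40443200-40443449 (plus) and IGFBP5 from chr2:216695550-216695799 (minus). Each runs 5′ to 3′, and capitals mark an E-box (CANNTG, the motif of MYOD and other basic helix-loop-helix factors), a GC box (GGGCGG, either strand) or a TATA box (TATAAA, either strand).
IGFBP6: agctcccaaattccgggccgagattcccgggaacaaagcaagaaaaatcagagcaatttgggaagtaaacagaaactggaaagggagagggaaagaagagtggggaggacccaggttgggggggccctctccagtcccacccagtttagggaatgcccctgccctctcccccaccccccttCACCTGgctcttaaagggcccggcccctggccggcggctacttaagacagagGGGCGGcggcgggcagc
IGFBP2: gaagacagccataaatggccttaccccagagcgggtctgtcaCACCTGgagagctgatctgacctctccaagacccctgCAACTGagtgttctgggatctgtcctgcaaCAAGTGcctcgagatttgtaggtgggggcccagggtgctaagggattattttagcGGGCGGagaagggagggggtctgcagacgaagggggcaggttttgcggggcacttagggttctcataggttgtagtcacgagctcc
IGFBP4: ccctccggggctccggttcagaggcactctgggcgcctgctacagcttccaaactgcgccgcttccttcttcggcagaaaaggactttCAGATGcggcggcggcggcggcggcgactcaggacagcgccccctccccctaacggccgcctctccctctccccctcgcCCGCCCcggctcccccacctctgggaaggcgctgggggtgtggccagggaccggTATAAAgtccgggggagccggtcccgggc
IGFBP5: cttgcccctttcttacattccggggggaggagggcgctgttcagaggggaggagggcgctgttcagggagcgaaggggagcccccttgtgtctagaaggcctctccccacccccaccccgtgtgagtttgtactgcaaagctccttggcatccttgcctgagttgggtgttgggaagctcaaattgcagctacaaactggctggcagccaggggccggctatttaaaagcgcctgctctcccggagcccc
An E-box was found 1 time for IGFBP6, 3 times for IGFBP2, 1 time for IGFBP4 and 0 times for IGFBP5. Of the 35116 RefSeq windows of this length 61.8% held one. IGFBP6, IGFBP2 and IGFBP4 each had 1 GC box, a motif in 42.6% of windows, and IGFBP4 had the only TATA box of the 4, a motif in 10.7% of windows.  Matches are descriptions of these letters and no sign of binding.

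Together the binding protein transcripts IGFBP1 to IGFBP7 were fewer with shSKP2 than with shSCR in both lines. They summed to 623 TPM in RD shSCR and 111 TPM in RD shSKP2, 5.60-fold less, and to 426 TPM in JR1 shSCR and 126 TPM in JR1 shSKP2, 3.38-fold less. Without IGFBP6 the sums were 160 and 66.4 TPM in RD (2.41-fold) and 251 and 116 TPM in JR1 (2.17-fold). With short structural RNA genes left out, the sums of IGFBP1 to IGFBP7 were 4.23-fold and 2.76-fold less. IGFBP1 was listed at 0 in all 4 libraries, and IGFBP7, which binds IGF weakly, had at most 0.75 TPM.

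The make-up of this pool, a share within a library that no scaling moves, also differed. IGFBP6 made up 74.3% of the pool in RD shSCR and 40.2% in RD shSKP2, and 41.1% in JR1 shSCR and 8.28% in JR1 shSKP2. IGFBP2 went from 18.8% to 45.0% in RD and from 27.9% to 26.8% in JR1. IGFBP3 went from 1.27% to 4.28% in RD and from 28.2% to 60.1% in JR1. The leading transcript with shSKP2 was therefore IGFBP2 in RD and IGFBP3 in JR1, while that of the shSCR libraries was IGFBP6 in both lines. IGFBP5 made up 4.19% and 6.08% in RD, and 0.399% and 2.40% in JR1. IGF2 exceeded the pool 2.08-fold in RD shSCR and 13.2-fold in RD shSKP2, and 3.29-fold in JR1 shSCR and 9.47-fold in JR1 shSKP2. Its ratio to IGFBP6 alone went from 2.80 to 32.9 in RD and from 8.0 to 114 in JR1.

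**Figure D3:**
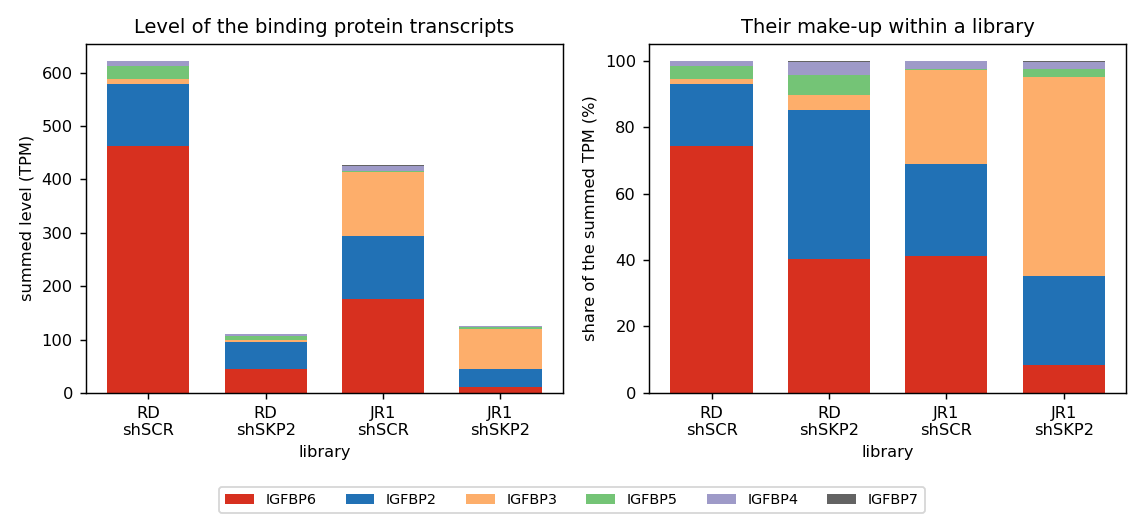
Transcripts of the binding proteins in each of the 4 libraries, stacked by gene, as summed level in TPM (left) and as share of the summed TPM in percent (right), without replicates. IGFBP1 is listed at 0 and has no bar. The sum is 623 and 111 TPM in RD and 426 and 126 TPM in JR1, and IGFBP6 takes 74.3% of it in RD shSCR and 8.28% in JR1 shSKP2.

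The lines were next compared with each other for the same hairpin. With shSCR 2 of the 9 tested genes were called higher in RD and 1 lower, where 6.5% and 3.44% of all tested genes were. With shSKP2 1 was called higher in RD and 1 lower, where 5.39% and 2.7% of all tested genes were. The genes were not chosen on these contrasts, but they share libraries with those that were used. IGFBP3 separated the lines with either hairpin, 15.2-fold lower in RD with shSCR and 15.9-fold lower with shSKP2, differences of -3.77 and -3.74. IGFBP6 was 2.64-fold higher in RD with shSCR (1.40) and 4.28-fold higher with shSKP2 (2.0). IGFBP5 was 15.4-fold higher in RD with shSCR (3.33) and 2.23-fold higher with shSKP2, where the difference of 0.95 fell just short of the limit and passed it, at 1.13, with 0.1 TPM added in place of 1. The other 6 tested genes differed between the lines by at most 0.61 with either hairpin. Among them IGFBP2 and IGFBP4 differed by -0.02 and -0.12 with shSCR and by 0.55 and 0.61 with shSKP2.

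In the order of levels IGF2 led in all 4 libraries. IGFBP6 and then IGFBP2 followed in RD shSCR, whereas in RD shSKP2 IGFBP2 at 50.1 TPM, IGF2R at 45.1 TPM and IGFBP6 at 44.7 TPM lay close together. In JR1 shSCR IGFBP6 was followed by IGFBP3 at 120 TPM and IGFBP2 at 119 TPM. In JR1 shSKP2 IGFBP3 at 75.9 TPM and IGF2R at 51.8 TPM came after IGF2, and IGFBP6 stood below IGF1R. Without replicates no neighbours in this order can be said to differ beyond their spread. Among the 5 profiles nearest to IGF2 were those of MIR4453HG, POLR1E, DNAAF3 and ZNF566-AS1, at distances of at most 0.06, genes whose level hardly varied.

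A list of 53 further genes of the pathway was described beside these, of which 43 were tested. With shSKP2 5 of the 43 were called lower and 0 higher in RD, where 7.37% and 1.08% of all tested genes were. In JR1 4 were called lower and 1 higher, where 9.05% and 1.78% of all tested genes were. Their median change was -0.25 in RD and -0.10 in JR1, close to the -0.27 and -0.21 of all tested genes. The only other binding protein gene tested was IGFBPL1, at 7.62 and 15.0 TPM in RD and at 22.9 and 33.8 TPM in JR1. Its change was 0.89 and 0.54, opposite in sign to IGFBP6, and in RD it passed the limit relative to the median of tested genes (1.16).

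Among binding protein proteases and their inhibitors 7 of 9 were tested, and 2 were called lower in each line. PAPPA was at 9.93 and 5.29 TPM in RD (-0.80) and at 25.8 and 7.09 TPM in JR1 (-1.73). The gelatinase MMP2 was at 4.42 and 0.64 TPM in RD (-1.72) and at 5.05 and 1.90 TPM in JR1 (-1.06, or -0.85 relative to the median of tested genes). The serine protease HTRA1 was at 4.45 and 1.24 TPM in RD (-1.28) and at 3.18 and 1.3 TPM in JR1 (-0.86). The PAPPA inhibitors differed less. STC1 had the highest change of the list in RD, 0.50, and STC2 the highest in JR1, -0.01. STC1 was the only 1 of the 7 that was higher in RD, where the other 6 were lower. In JR1 all 7 were lower. The median of the 7 was -0.36 in RD and -0.31 in JR1.

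Among the insulin receptor and docking adaptors, of which 9 of 11 were tested, GRB10 and IRS4 were called. GRB10, an imprinted adaptor that restrains insulin and IGF receptors, was at 53.2 and 14.0 TPM in RD (-1.85) and at 24.8 and 9.53 TPM in JR1 (-1.29). IRS4, an X-linked relative of IRS1, was at 9.71 TPM in RD shSCR and 0.01 TPM in RD shSKP2 (-3.41), while JR1 had 0.11 and 0.02 TPM. It passed the minimum mean through RD shSCR alone, so its calls against that library follow from the filter. IRS4 is known from HEK293T cells, the line in which the lentivirus was packaged. Of 6 other genes known from that line, chosen after these values were seen (PAX2, PAX8, LHX1, LIN28B, NEFL and NEFM), none was at 0 in all 4 libraries. PAX8 was listed at 0 in both RD libraries and at 0.06 and 0.09 TPM in JR1. LHX1 stayed at or below 0.08 TPM. The summed level was 129 and 192 TPM in RD and 12.7 and 17.8 TPM in JR1, without and with shSKP2. Most of it in RD was NEFL (68.35 and 94.9 TPM) and NEFM (39.45 and 74.06 TPM). LIN28B was at 13.13 and 16.07 TPM in RD and at 9.59 and 13.61 TPM in JR1. PAX2 was at 8.28 and 6.99 TPM in RD and at 0.58 and 1.46 TPM in JR1. With shSKP2 3 of the 6 were higher and 2 lower in RD, and 4 higher and 2 lower in JR1. Of all tested genes 3200 were higher and 9738 lower in RD, and 4011 and 8943 in JR1. Whether these values bear on IRS4 was not tested. The highest changes of the adaptors were those of PTPN1 in RD (0.25) and of INSR in JR1 (0.49), with list medians of -0.21 (RD) and 0.06 (JR1).

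All 20 listed genes of the PI3K, AKT and mTOR arm were tested, and 1 was called. FOXO1, a transcription factor that AKT keeps out of the nucleus, was at 3.07 and 4.52 TPM in RD (0.44) and at 0.58 and 2.56 TPM in JR1 (1.17). PIK3R3, a regulatory subunit of PI3K, had the highest change of the list in RD, 0.50. Changes of the 20 genes ran from -0.69 to 0.50 in RD, with a median of -0.16, and from -0.86 to 1.17 in JR1, with a median of -0.06. Among 6 tested genes of the IGF2 locus and of IGF2 mRNA regulation IGF2-AS alone was called, with -1.65 in RD and -1.32 in JR1. The IGF2 mRNA-binding protein gene IGF2BP1 had the highest change in each line, 0.03 and 0.34.

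**Figure D4:**
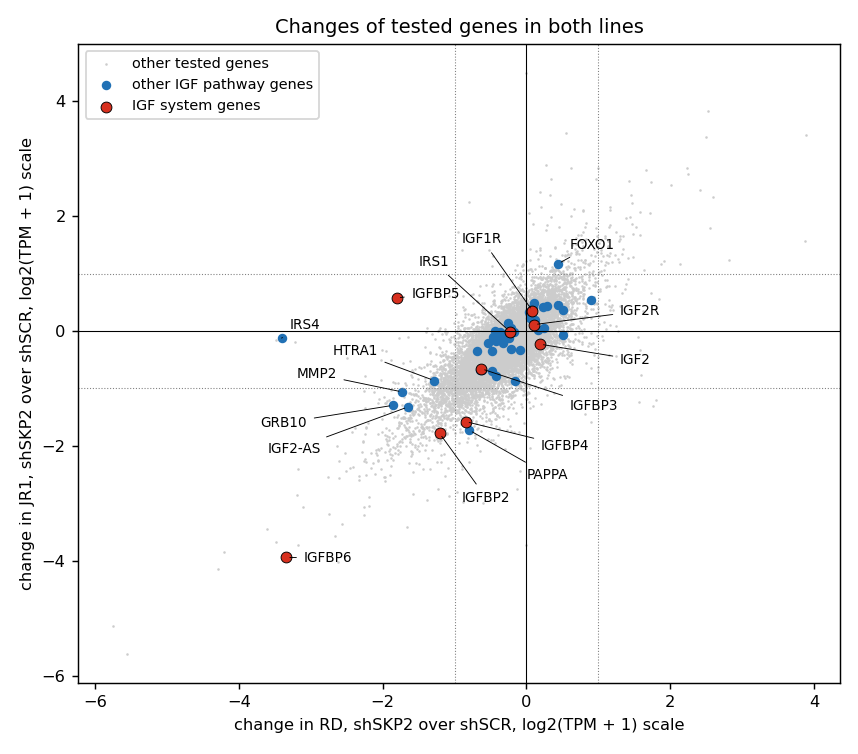
Change with shSKP2 over shSCR in RD (horizontal) and JR1 (vertical) on the log2(TPM + 1) scale for 12861 tested genes, 1 point per gene, with 9 IGF system genes in red and 43 other pathway genes in blue. Dotted lines mark -1 and 1, and coloured genes past them in either line are named. IGFBP6 lies at -3.34 and -3.94, and IGFBP5 and IRS4 lie apart from the diagonal.

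Between the lines 4 of the 43 pathway genes were called higher in RD and 2 lower with shSCR, where 6.5% and 3.44% of all tested genes were. With shSKP2 0 were called higher and 1 lower, where 5.39% and 2.7% of all tested genes were. With shSCR these were IRS4 (3.27), FOXO1 (1.37), GRB10 (1.07) and IGF2-AS (1.03), against IGFBPL1 (-1.47) and PAPPA (-1.29). IRS4 was tested only through its level in RD shSCR. The calls of GRB10 and IGF2-AS were lost relative to the median of tested genes (0.84 and 0.80) and with short structural RNA genes left out (0.87 and 0.87). With shSKP2 IGFBPL1 alone was past the limit, at -1.12.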

How the data were processed

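Poly-A selected RNA was sequenced from infected cells of both lines, 1 library per line and hairpin. TPM values, deposited with 2 decimals and with each gene's position, had been estimated by the authors with RSEM 1.3.2 after STAR 2.7.9a alignment (GRCh38). The depth is unknown, so counting error cannot be given. Differences were log2 of the ratio of TPM + 1, over genes whose mean TPM reached 1. Libraries were grouped by their labels. Named genes were the 10 IGF system genes, the highest, lowest and called genes of each list (for the PI3K arm the lowest by value only), and the 5 nearest profiles of IGFBP6, IGFBP5, IGFBP2 and IGF2. Genes, lists and rules were chosen with earlier results of these data known. A few genes of the lists are not reported here. The alternatives were 0.1 TPM added, centring on the median, removal of 2570 short structural RNA genes by symbol (or of 2984 with RMRP, RPPH1 and transfer RNA genes) with rescaling, no minimum beyond 0 TPM, a mean TPM of 5 or more, calls from 1.5-fold and the share of IGFBP2 to IGFBP6 alone. The code that makes the calls was checked on simulated TPM with known differences, which is no test of the libraries. Tools were pandas 2.3.3, numpy 2.4.6 and matplotlib 3.10.9 under Python 3.11.15.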

Additional observations from a re-analysis of the deposited data

Results flagged for a closer look

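2 genes had changes of opposite sign in the lines under every scaling and with either pseudocount, which is why they are listed here. The change in RD minus that in JR1 was -2.38 for IGFBP5 and -0.44 for IGF2BP2. With 1 library per condition these differences were not tested. IGF2BP2, an IGF2 mRNA-binding protein, was at 42 and 30.9 TPM in RD and at 36.7 and 36.9 TPM in JR1, without and with shSKP2. Its JR1 libraries were almost equal, so the sign in JR1 rests on less than 0.2 TPM, and with short structural RNA genes left out its change in RD was -0.04.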

How the results depend on the processing

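Single values of IGFBP6, IGFBP3 and, apart from the call between the lines with shSKP2, IGFBP5 kept their sign and side of the limit within each line and between lines under all 4 alternatives of scale and pseudocount. Counts of called genes depended more on the settings, by their construction. With a limit of 1.5-fold, 5 IGF system genes were lower with shSKP2 in RD and 3 were higher in RD than in JR1 with shSKP2, where 23.2% and 16.1% of all tested genes were. Of the 43 other pathway genes, 1 was then higher and 9 were lower in RD, where 3.2% and 23.2% of all tested genes were. In JR1 10 were lower, where 23.4% of all tested genes were. In RD against JR1 10 were higher and 4 lower with shSCR, where 20.4% and 7.02% of all tested genes were. With shSKP2 2 were higher and 4 lower, where 16.1% and 5.8% were. With 0.1 TPM added, 2 IGF system genes were higher and 2 pathway genes lower in RD against JR1 with shSKP2, where 9.18% of all tested genes were higher and 3.74% lower. Centred on the median, pathway genes gave 1 higher in RD, 2 higher in RD against JR1 with shSCR and 2 lower with shSKP2. The shares of all tested genes were 2.09%, 3.81% and 3.7%. With short structural RNA genes removed, there was 1 higher in RD, 2 higher in JR1, 2 higher in RD against JR1 with shSCR and 4 lower with shSKP2. Here the shares were 3.75%, 4.71%, 5.08% and 4.3% of the 14732 genes that reached the minimum mean after rescaling. With RMRP, RPPH1 and transfer RNA genes also removed, there was 1 higher in RD, 2 higher in JR1, 2 higher in RD against JR1 with shSCR and 4 lower with shSKP2. The 15216 genes that then reached the minimum mean gave 4.39%, 4.91%, 4.71% and 4.95%. A minimum mean of 5 TPM left 2 pathway genes lower in RD, 0 higher in JR1, and 2 higher in RD against JR1 with shSCR. Of all genes above that minimum 8.41%, 1.6% and 6.49% were. Shares of the binding protein pool were the same within 1.5 times over IGFBP2 to IGFBP6 alone. The lines could serve as 2 pairs of shSKP2 and shSCR, but no paired fit was run, and each line's own value is given. Leaving out a library would remove the comparisons it enters and keep the TPM and differences of the others. The set of tested genes rests on the mean over 4 libraries, so that set, its medians and its shares could shift. This was not run.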
